A study of Mus musculus with 10 samples.

Results

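Heat shock proteins and J proteins (the DNAJ cochaperones) are the general chaperone machinery of the cell, and the present description covers their transcripts in whole mouse embryos at E11.5. Members were chosen by symbol: *Hspa*, *Hspb*, *Hspd*, *Hspe* and *Hsph* genes, *Hsp90* genes and *Dnaja*, *Dnajb* and *Dnajc* genes, without pseudogenes. Of the 24302 genes in the deposited tables, 72 symbols matched and 71 of them had a mean normalized count above 0. The exception was *Dnajb8*, a J protein best known from testis, which was listed at 0. The data are RNA-seq libraries of 10 whole C57BL/6 embryos of embryonic day 11.5, of which 3 were wildtype (*Wwc2* +/+), 3 heterozygous (*Zp3-Cre-Wwc2* KO/+) and 4 homozygous for the *Wwc2* deletion (*Zp3-Cre-Wwc2* KO/KO). The *Zp3* promoter drives Cre in the oocyte, so maternal expression is removed as well. The study compared the 3 genotypes, while the value used here is the authors' mean normalized count of each gene over all 10 embryos. It carries no spread between embryos and cannot show a difference between genotypes, so no test was made.

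HSP70 proteins bind stretches of unfolded protein in a cycle driven by ATP. J proteins bring clients to HSP70 and speed up its ATP hydrolysis through their J domain, and nucleotide exchange factors such as the HSP110 proteins reset it. HSP90 acts later on clients that are close to their folded state, the chaperonin of HSP60 and HSP10 encloses proteins of the mitochondrial matrix, and small heat shock proteins hold unfolded proteins without ATP. The cytosol, the endoplasmic reticulum (ER) and the mitochondria each have their own HSP70 and J proteins. By the compartment known for their proteins, 35 of the 72 genes were placed in the cytosol, 13 in the ER, 8 in the mitochondria and 16 elsewhere or in no certain place (nucleus, vesicles, cilium).

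To compare genes with each other, each mean normalized count was divided by the summed length of the gene's exons and scaled so that the 22770 genes with a known length add up to 1000000. This value is termed the level, and is a share of transcripts and not of protein. The normalized counts summed to 25560000 per embryo, of which 97.22% fell on genes with a length. The members took 1.37% of the normalized counts and 1.43% of the summed level. Of the 15195 genes with a length whose mean normalized count reached 10, the median level was 20.9, with quartiles of 5.83 and 54.3. Of the 71 members, 67 reached that count, and their median level of 35.9 lay at percentile 64.8 of these genes. Above the median of these genes lay 43 of the 67 members, 14 were in the top 10% and 6 in the lowest 25%. RNA of the whole embryo was measured, so a low level from few cells and a low level in every cell cannot be told apart.

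Transcripts of the main embryonic tissues were present. Given here is the highest of the markers listed for each tissue. The level was 30884 for *Hbb-y* of primitive red cells, 1034 for *Afp* of fetal liver and 840 for *Tubb3* of neurons. It was 98.9 for *Myh7* of heart muscle, 86.4 for *Myog* of skeletal muscle and 158 for *Cdh5* of endothelium. The other markers listed for these tissues were lower than the one given, down to 37.4 for *Myod1* of skeletal muscle. All listed markers of the trophoblast, an extraembryonic tissue, are given, with pooled levels of 467 for *Tpbpa*, 53.2 for *Prl3d1* and 0.762 for *Gcm1*. The pooled mean does not show which embryos or genotypes these reads came from. The study lists *Tpbpa* among the genes most upregulated in its homozygous embryos, so its pooled level describes no single genotype. The part of trophoblast reads in the level of the chaperones was not tested. The level of *Wwc2*, the targeted gene, was 22.1 over all 10 embryos, and a mean over the genotypes does not check the labels.

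The most abundant member was *Hsp90ab1*, the constitutive HSP90 of the cytosol, with a mean normalized count of 123928.6 and a level of 5938. It ranked 7 among all genes with a length and held 41.6% of the members' summed level. The next members were *Hsp90b1* (GRP94, the HSP90 of the ER lumen, level 1075), *Hspa8* (HSC70, the constitutive HSP70 of the cytosol, 1013) and *Hspa5* (BiP, the HSP70 of the ER lumen, 927). *Hsp90aa1*, the stress-responsive HSP90 of the cytosol, followed with a level of 599. The next places were held by genes of the mitochondrial matrix, *Hspd1* (HSP60, 537), *Hspe1* (HSP10, 434) and *Hspa9* (mortalin, the matrix HSP70, 425). The leading 8 members thus held the HSP70 and the HSP90 or chaperonin of each compartment. With the longest transcript as the length, the same 8 members led, but *Hspa8* came before *Hsp90b1* and both *Hspe1* (497) and *Hspa9* (450) came before *Hspd1* (438). The order of such neighbours therefore rests on the length chosen, and the spread between embryos that would separate them is not known here.

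**Figure D1:**
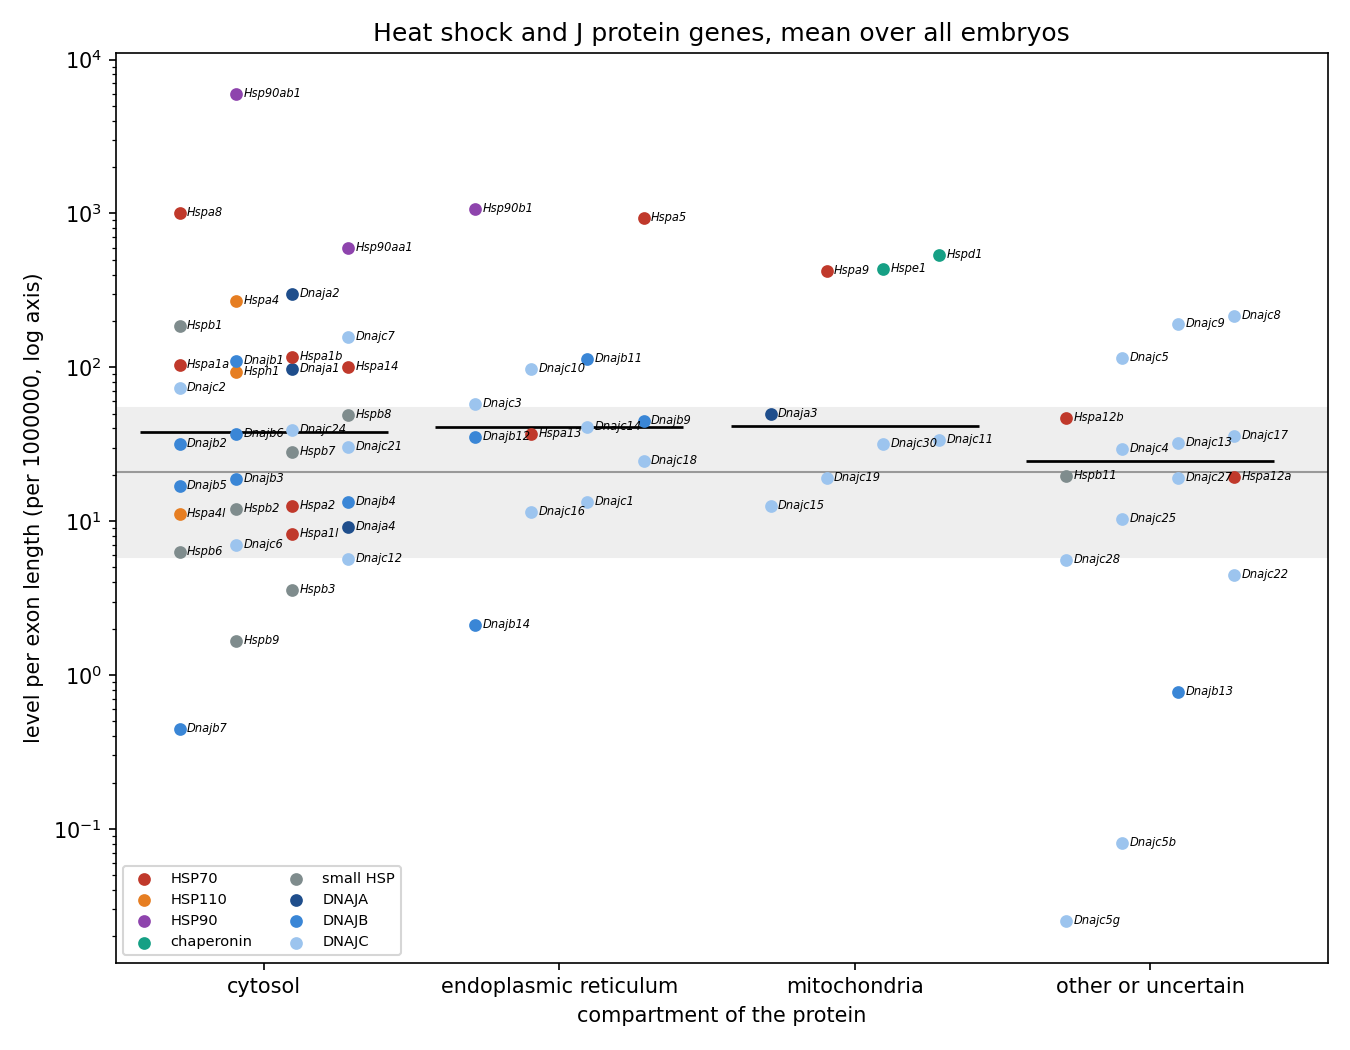
Level per exon length of each of the 71 members with a mean above 0 (log axis) by compartment. Each point is 1 gene, coloured by family, black bars are the medians of members whose mean normalized count reached 10, and the grey line and band are the median (20.9) and quartiles (5.83 to 54.3) of all genes kept; the 3 medians of cytosol, ER and mitochondria lie close to each other while single genes range from 0.0251 to 5938.

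The cytosolic members had the largest summed level, and a single gene made up most of it. Their levels summed to 9500, against 2478 in the ER and 1543 in the mitochondria. *Hsp90ab1* held 62.5% of the cytosolic sum, *Hsp90b1* 43.4% of the ER sum and *Hspd1* 34.8% of the mitochondrial sum. Without the leading gene of each compartment, the sums were 3562, 1403 and 1006. The medians of the members whose mean normalized count reached 10 were close to each other, at 38 over 32 cytosolic genes, 40.8 over 13 ER genes and 41.7 over 8 mitochondrial genes. The 14 genes kept of the remaining places had a median of 24.6. The quartiles of the 3 compartments overlapped, from 12.4 to 111 in the cytosol, from 24.5 to 97 in the ER and from 28.5 to 428 in the mitochondria. Where only soluble proteins of each organelle were counted, without those anchored in a membrane, the median was 97 in the ER and 430 in the mitochondria. The 5 lowest ER members and the 4 lowest mitochondrial members were J proteins of membranes.

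**Figure D2:**
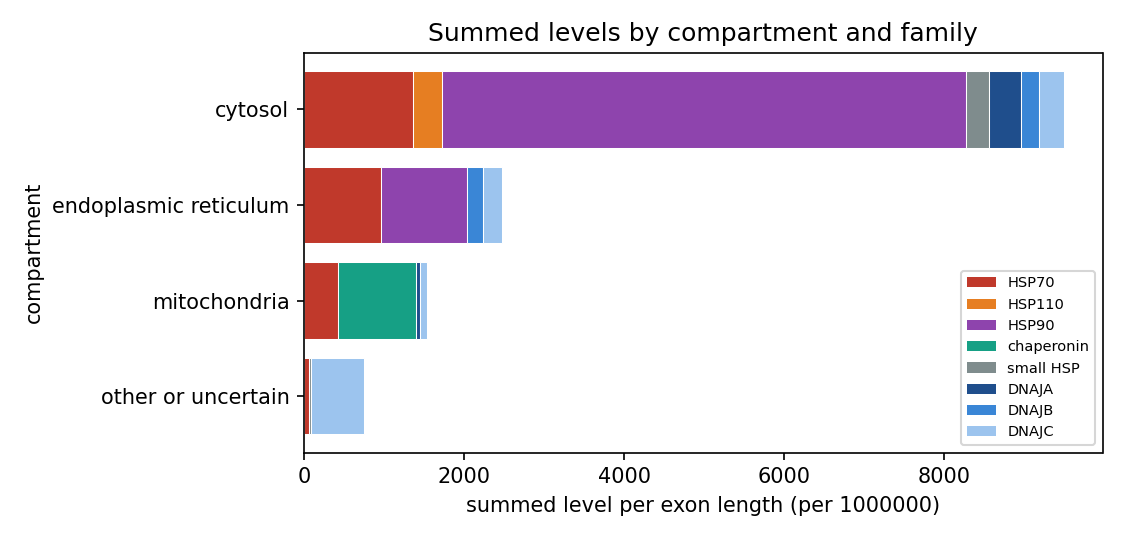
Summed level per exon length (of 1000000 over all genes) of the members in each compartment, with the bar divided by family. HSP90 makes up 6536 of 9500 in the cytosol and 1075 of 2478 in the ER, and the chaperonin 971 of 1543 in the mitochondria.

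The balance of HSP70 and its cochaperones differed between the compartments as values, with no replicate to test it. In the cytosol, the levels of 6 HSP70 genes summed to 1356 and those of 17 J protein genes to 949, a ratio of 1.43. In the ER the sums were 964 for 2 HSP70 genes and 439 for 10 J protein genes, a ratio of 2.19. In the mitochondria the single HSP70 gene had a level of 425 and 5 J protein genes summed to 147, a ratio of 2.90. These sums and ratios hold for the members only. J proteins without a *Dnaj* symbol are outside them, such as *Sec63* of the ER (level 64.3) and *Hscb* of the mitochondria (53.4). *Gak* (62.1), given no compartment here, is outside them as well. The level of HSP90 was 4.82 times the level of HSP70 in the cytosol and 1.11 times in the ER. The mitochondrial HSP90 relative *Trap1* carries no HSP symbol and is outside the members, and its level was 158. HSP110 genes were found in the cytosol alone by the symbol rule, while the ER counterpart *Hyou1* had a level of 116.

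Promoter sequence was set beside these levels for the elements of the main stress responses. Heat shock factor 1 binds heat shock elements, which alternate the unit GAA with its reverse complement TTC. ATF6, a sensor of unfolded protein in the ER, acts with NF-Y on the ER stress element, which joins a CCAAT box and a CCACG box. RefSeq promoter windows of GRCm38.p6, from 250 bases before to 50 bases after each gene start, were found for 58 of the 72 genes. A heat shock element was taken as 3 alternating units with gaps of 2 bases, and an ER stress element as CCAAT and CCACG with 9 bases between them, each on either strand. At least 1 window held a heat shock element in 4 of the 58 members (6.9%) and in 179 of all 27025 genes (0.662%). Of these members, *Hspd1* and *Hspe1* hold the same elements in overlapping windows, so 1 stretch of sequence is counted for both. An ER stress element was found in 3 members (5.17%), all of the ER, and in 37 of all genes (0.137%). A match of letters is not shown to be bound, and a window without a match says nothing of the factor.

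The levels of the 6 cytosolic HSP70 genes ran from 8.31 to 1013. *Hspa8*, which every cell uses, had a level of 1013 and held 74.7% of the cytosolic HSP70 sum. The stress-inducible pair *Hspa1b* and *Hspa1a* had levels of 117 and 104, so that *Hspa8* stood at 9.72 times *Hspa1a*. These are means over all 3 genotypes, so a few embryos or 1 genotype may carry most of the reads of a stress-inducible gene. The study lists *Hspa1a* among the genes most upregulated in its homozygous embryos. The values and the ratio to *Hspa8* therefore hold for the mixed pool and describe no single genotype. *Hspa14*, an HSP70 that works at the ribosome, had a level of 101. GENCODE M21 gives the identifier of *Hspa14* in the tables (ENSMUSG00000051396) the name *Gm45902*, and its exons share 7.38% of their bases with a second locus named *Hspa14*. The level uses the exon length of that identifier, so it may not be that of the second locus. The HSP70 genes best known from testis were lowest, with a level of 12.5 for *Hspa2* and 8.31 for *Hspa1l*. *Hspa12b*, a distant relative best known from endothelium, had a level of 47.1 and the related *Hspa12a* one of 19.4.

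*Hspa1b*, *Hspa1a* and *Hspa1l* lie side by side on chromosome 17 of GRCm38. *Hspa1b* spans 34956436 to 34959238 and *Hspa1a* 34969190 to 34972156, both on the minus strand with 9951 bases between them, and each has a single exon. *Hspa1l* starts 547 bases from *Hspa1a* on the plus strand. Of the 80-base windows of the *Hspa1a* transcripts, a window being as long as a read, 51.6% occur also in *Hspa1b*. A read from such a window cannot be assigned to either gene, and a counter that drops reads with several origins would lower both levels. Of the windows of *Hspa1l*, 71.1% lie on *Gm10501*, an annotated antisense transcript, so its level depends on how strand was treated. The study's methods name a directional library kit, while the sample labels name a kit without that word. The strand setting of the read counting is not given in the sources used here. The promoter windows of *Hspa1a* and *Hspa1b* were identical in 296 of 300 bases (98.7%). Neither window holds 3 units in a row, and each holds 1 run of 2 units, 104 bases before the start. Runs of 2 units are common, being found in 16 of the 58 members (27.6%) and in 17.0% of all genes. Both windows are shown in full, with the run of 2 units in capitals.
Hspa1a, chr17:34972107-34972406, minus strand: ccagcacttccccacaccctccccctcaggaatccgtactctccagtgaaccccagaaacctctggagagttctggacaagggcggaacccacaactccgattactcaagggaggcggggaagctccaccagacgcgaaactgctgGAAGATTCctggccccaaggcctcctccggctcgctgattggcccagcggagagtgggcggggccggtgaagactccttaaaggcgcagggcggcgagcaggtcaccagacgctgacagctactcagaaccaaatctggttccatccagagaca
Hspa1b, chr17:34959189-34959488, minus strand: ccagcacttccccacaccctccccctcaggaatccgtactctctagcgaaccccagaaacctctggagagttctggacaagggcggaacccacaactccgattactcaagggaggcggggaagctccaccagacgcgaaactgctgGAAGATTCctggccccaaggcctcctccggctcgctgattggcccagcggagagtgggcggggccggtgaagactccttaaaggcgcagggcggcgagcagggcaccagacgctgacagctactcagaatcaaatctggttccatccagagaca

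The HSP110 genes, whose products exchange the nucleotide of HSP70, were led by *Hspa4* with a level of 271. *Hsph1*, a stress-inducible member, had a level of 92.6 and *Hspa4l* one of 11.2. The level of *Hspa4* was thus 24.2 times that of *Hspa4l*. *Hsph1* was the only gene of the 3 with a heat shock element of 3 units in a window. The element begins 15 bases after 1 of its RefSeq starts and 36 bases after another. It is shown with 8 bases on either side and the element in capitals.
Hsph1, chr5:149636280-149636308, minus strand: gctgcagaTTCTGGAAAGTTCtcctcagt

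The cytosolic HSP90 pair differed widely in level. That of *Hsp90ab1* was 9.92 times that of *Hsp90aa1*, or 9.85 times with the longest transcript as the length. Of the 80-base windows of *Hsp90aa1*, 41.9% occur in other annotated genes, chiefly the pseudogene *Gm12346* with 35.2%, against 0.24% for *Hsp90ab1*. Reads with several origins, if dropped, would lower the count of *Hsp90aa1* more than that of *Hsp90ab1*, and their part in the gap between the pair was not tested. Cytosolic cochaperones of HSP90 and HSP70 outside the symbol rule ranged from a level of 669 for *Fkbp4*, an immunophilin that joins HSP90 to steroid receptors, to 23.9 for *Bag4*, which acts on HSP70. The cytosolic chaperonin CCT, which folds actin and tubulin, was also high, with levels from 260 (*Cct7*) to 832 (*Cct2*) over the 7 of its 8 subunit genes with a level.

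Of the small heat shock proteins, *Hspb1* (HSP25) stood above the rest with a level of 185. *Hspb8*, which works with BAG3 in the removal of aggregates, had a level of 48.8, and *Hspb7*, known from the heart, one of 27.9. *Hspb2* (12), *Hspb6* (6.3) and *Hspb3* (3.56), best known from muscle, were lower. *Hspb9*, known from testis, had a level of 1.66 and a mean normalized count of 8.37. *Hspb11*, which despite its symbol is a subunit of the intraflagellar transport complex of cilia, had a level of 19.7. The alpha-crystallins, small heat shock proteins with other symbols, had levels of 84.4 (*Cryab*) and 15.9 (*Cryaa*). Of the windows of *Hspb1*, 45.9% are also in the pseudogene *Hsp25-ps1*. *Hspb2* overlaps *Cryab* on the other strand, with 20.8% of its windows in common.

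In the cytosol, the class A protein *Dnaja2* had the highest level of the J proteins, 301. With the longest transcript as the length, *Dnajc7* (247) came before *Dnaja2* (229), and *Dnaja1* (112) before *Dnajb1* (87.5). *Dnajc7*, whose TPR repeats link HSP70 and HSP90, had a level of 158, and *Dnajb1*, the HSP40 of the heat shock response, one of 109. The class A genes ranged from *Dnaja2* through *Dnaja1* (97.3) to *Dnaja4* (9.19), and 41.9% of the windows of *Dnaja4* lie on its neighbour *Wdr61*. *Dnaja2* and *Dnajb1* shared no 80-base window with another gene. The lowest J proteins of the cytosol with a mean above 0 were *Dnajc12* (5.72), a cochaperone of the aromatic amino acid hydroxylases, and *Dnajb7* (0.443), known from testis. *Dnajb6*, which keeps polyglutamine proteins from aggregating, had a level of 36.8. Its level was 57.2 with the longest transcript as the length and thereby moved by over 1.5 times, as did the levels of *Dnajc7* and of *Dnajc1* (21.2), an ER J protein. Its window holds a heat shock element 46 bases before the nearer of its annotated starts, shown in capitals.
Dnajb6, chr5:29735844-29735872, plus strand: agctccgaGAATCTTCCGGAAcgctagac

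In the ER, *Hsp90b1* and *Hspa5* had similar levels, with *Hspa5* at 0.863 times *Hsp90b1*, or 0.794 times with the longest transcript. *Hspa13*, a second HSP70 tied to microsomes, had a level of 36.8, so *Hspa5* held 96.2% of the HSP70 level of the ER. The soluble J proteins *Dnajb11* (ERdj3, level 113), *Dnajc10* (ERdj5, which reduces disulfide bonds, 97) and *Dnajc3* (p58IPK, 57.5) led the J proteins of the ER. With the longest transcript as the length, the membrane protein *Dnajc14* (47.4) came before *Dnajc3* (43.1). The lowest were *Dnajc16* (11.4) and *Dnajb14* (2.12), both anchored in the membrane. The mean normalized count of *Dnajb14* was 232.3, spread over exons that add up to 15741 bases, the greatest length of any member. Other ER chaperones ranged from 1179 for *P4hb*, a protein disulfide isomerase, to 21.9 for *Sil1*, an exchange factor of BiP.

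The 3 members with an ER stress element were *Hspa5*, *Hsp90b1* and *Dnajc3*, which are 3 of the 11 ER members with a window (27.3%). None of the 29 cytosolic and none of the 5 mitochondrial members with a window held one. With 1 mismatch allowed, the cytosolic *Dnaja4* joined them, and the share of all genes was 1.72% in place of 0.137%. *Hsp90b1* held 2 elements, on opposite strands, 212 and 107 bases before the start, *Dnajc3* 1 element at 105 bases and *Hspa5* 1 at 65 bases. Each element is shown in the direction of its gene with 8 bases on either side and the element in capitals, from CCAAT to CCACG or, in the opposite direction, from CGTGG to ATTGG.
Hspa5, chr2:34772017-34772051, plus strand: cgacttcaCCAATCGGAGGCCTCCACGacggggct
Dnajc3, chr14:118937819-118937853, plus strand: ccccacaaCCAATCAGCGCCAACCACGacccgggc
Hsp90b1, chr10:86705630-86705664, minus strand: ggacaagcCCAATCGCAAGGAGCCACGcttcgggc
Hsp90b1, chr10:86705525-86705559, minus strand: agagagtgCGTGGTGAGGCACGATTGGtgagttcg

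The whole window of *Hspa5*, whose product is a chaperone widely used as a marker of ER stress, is shown with the same element in capitals. Of its bases, 61.3% are G or C.
Hspa5, chr2:34771840-34772139, plus strand: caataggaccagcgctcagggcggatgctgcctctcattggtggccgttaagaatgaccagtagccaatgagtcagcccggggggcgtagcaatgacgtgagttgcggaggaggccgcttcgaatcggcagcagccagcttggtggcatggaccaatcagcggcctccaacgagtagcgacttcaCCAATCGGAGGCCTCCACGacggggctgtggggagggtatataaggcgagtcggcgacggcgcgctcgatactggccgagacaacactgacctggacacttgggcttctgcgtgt

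In the mitochondria, the chaperonin and HSP70 stood far above the J proteins. *Hspd1*, *Hspe1* and *Hspa9* had levels between 425 and 537. *Dnaja3* (TID1), a soluble J protein of the matrix, had a level of 49.5. Among the members, the membrane J proteins *Dnajc11* (33.8), which takes part in shaping cristae, and *Dnajc30* (31.6) followed. *Dnajc19* (19.1) and *Dnajc15* (12.5), which belong to the motor that imports proteins, were lowest. *Dnajc30* lies over *Bud23* on the other strand, with 22.6% of its windows in common. Other mitochondrial chaperones and proteases ranged from 158 (*Trap1*) to 17.1 (*Grpel2*, an exchange factor of mortalin). No mitochondrial member lay in the top 1% of the genes kept, against 2 in the cytosol and 2 in the ER.

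*Hspd1* and *Hspe1* are neighbours on chromosome 1 of GRCm38, read in opposite directions. In GENCODE, *Hspd1* spans 55077835 to 55088243 on the minus strand and *Hspe1* 55088132 to 55091307 on the plus strand. Their GENCODE starts thus lie 111 bases apart, and 112 bases of their first exons overlap. The promoter windows of ring and lid of the chaperonin were placed by RefSeq starts, which differ from these GENCODE starts. The windows overlap too, at 55087883 to 55088182 for *Hspd1* and 55087898 to 55088197 for *Hspe1*. The level of *Hspe1* was 0.809 times that of *Hspd1*, or 1.13 times with the longest transcript, so the order of the pair depends on the length. Of their windows, 29.4% for *Hspd1* and 13.7% for *Hspe1* are also in other genes, chiefly *Hspd1-ps3* for the former. The windows of both genes hold the same pair of overlapping heat shock elements, 18 bases long together. They begin 89 bases before the RefSeq start of *Hspe1*, and are given from *Hspd1* with 1 of the elements in capitals and from *Hspe1* as the whole window with both in capitals.
Hspd1, chr1:55088051-55088079, minus strand: gccttccgGAAGGTTCTAGAAcggaccgt
Hspe1, chr1:55087898-55088197, plus strand: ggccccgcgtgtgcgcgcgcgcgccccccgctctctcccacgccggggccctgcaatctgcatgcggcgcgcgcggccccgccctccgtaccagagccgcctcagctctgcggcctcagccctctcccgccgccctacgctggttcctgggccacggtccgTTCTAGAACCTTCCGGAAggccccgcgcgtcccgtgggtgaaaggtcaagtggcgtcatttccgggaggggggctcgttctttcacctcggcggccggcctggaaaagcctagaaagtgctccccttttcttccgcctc

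Among the J proteins of other places, a pair of nuclear proteins had the highest levels. *Dnajc8*, which associates with the spliceosome, had a level of 215 and *Dnajc9*, a histone chaperone, one of 192. *Dnajc5*, the cysteine string protein of secretory vesicles, followed with a level of 114, while *Dnajc17*, a nuclear J protein related to splicing, had one of 35.9. The relatives of *Dnajc5*, *Dnajc5b* (0.0812) and *Dnajc5g* (0.0251), were the lowest members above 0. Their means correspond to 7.11 and 2.86 normalized reads in all 10 embryos together. *Gak*, a J protein without a *Dnaj* symbol that uncoats clathrin vesicles, had a level of 62.1.

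The transcription factors of the heat shock response are not members, and they are given here for comparison. The level was 28.9 for *Hsf1*, the main factor of the response, 21.5 for *Hsf2*, 0.878 for *Hsf4* and 0.111 for *Hsf5*. Of the 4 members with a heat shock element of 3 units, *Hspd1*, *Hspe1*, *Hsph1* and *Dnajb6*, the levels ran from 36.8 to 537. By compartment, elements of 2 units were found in 11 of 29 cytosolic (37.9%), 1 of 11 ER (9.09%) and 2 of 5 mitochondrial members with a window. They were found in 2 of 13 other members (15.4%), and in 17.0% of all genes. The mitochondrial ones are *Hspd1* and *Hspe1*, whose windows overlap, and the cytosolic ones include the near-identical windows of *Hspa1a* and *Hspa1b*.

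How far a level can be read depends on how much of a gene's sequence is its own. Of the 72 genes, 39 shared under 1% of their 80-base windows with any other annotated gene and 33 shared none, while 16 shared over 10%. Shared windows were those of near-identical copies, as for *Hspa1a*, *Hspa8* (31.9%, with 14 other genes), *Hsp90aa1*, *Hspb1* and *Hspd1*, or of exons that overlap a neighbour, as for *Hspa1l*, *Dnaja4*, *Dnajc30* and *Hspb2*. Without these 16 genes, the summed level was 7319 in the cytosol, 2437 in the ER and 540 in the mitochondria, the last without both chaperonin genes and *Dnajc30*.

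**Figure D3:**
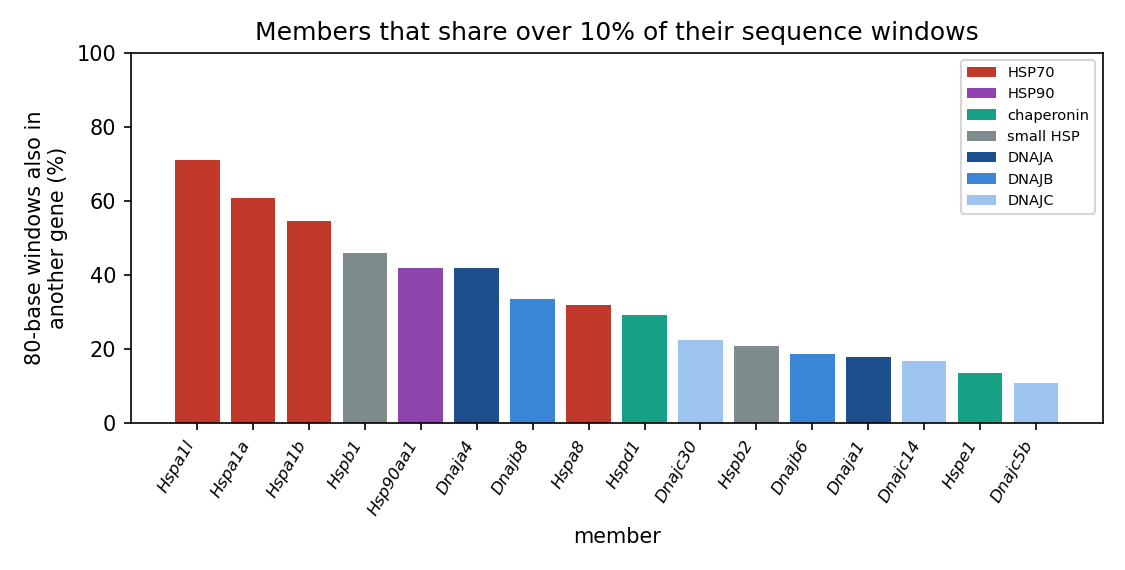
Percent of the 80-base windows of each gene that also occur, on either strand, in another annotated gene, for the 16 members over 10%. Bars are coloured by family, and *Hspa1l* (71.1%), *Hspa1a* (60.8%) and *Hspa1b* (54.7%) share the most.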

How the data were processed

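RNA of 10 whole E11.5 embryos was sequenced from poly(A)-selected libraries with reads of 80 bases. Per the submitters' processing notes, Trimmomatic 0.33, HISAT2 (genome mm10), HTSeq and DESeq2 were used, and the strand setting of HTSeq is not given in the sources used here. The deposited files hold 2 tables of DESeq2 results by the authors, KO versus wildtype and heterozygous versus wildtype. The only column used is the authors' mean normalized count over all 10 embryos, taken as a signal with no SD or n. It was the same in both tables (largest relative difference 4.79e-09). In 1 deposited table this mean is written with a decimal comma and was read as such. The other deposited columns are the authors' own log2 fold changes, standard errors, test statistics and p-values, and were not used. The planned test between genotypes needs counts of single embryos, which were not used here, and was not run.

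Each mean was divided by the union of exons in GENCODE M21 (GRCm38) and scaled to a sum of 1000000. Medians and percentiles use genes with a mean of at least 10. Shared windows are 80-base stretches of a gene's transcripts found in transcripts of another gene, on either strand. Calculations were tested on simulated data (Python 3.11.15, pandas 2.3.3). Named by rule were every HSP member, the 3 highest and 2 lowest J proteins of each compartment, members with an element, and the highest and lowest other chaperones, of which 1 gene is not reported here. Others (*Dnaja1*, *Dnaja4*, *Dnajc1*, *Dnajc14*, *Dnajc17*, *Hyou1*, *Hscb*, *Sec63*) were named after their values were seen. Members and lists were chosen with earlier results of these data known. Protein sequences were not analysed here.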

Additional observations from a re-analysis of the deposited data

How the results depend on the processing

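No paired analysis was possible because the values used come from no test and carry no embryo number. The alternatives planned for the comparison of genotypes (DESeq2, no filter on counts, leaving out each embryo) were not run for the same reason. With the longest transcript as the length, the median level was 39.3 in the cytosol, 43.06 in the ER and 51.46 in the mitochondria, the summed levels were 8687 in the cytosol and 2255 in the ER, and the median percentile of the members was 64.42. Under this choice 3 members moved by over 1.5 times, and the other ratios ran down to 0.7485. With no filter on low values, the cytosolic median was 31.64 and the median percentile 71.23. With soluble members only, the median was 97.05 in the ER and 429.7 in the mitochondria. Without the most abundant member, the sums were 3562, 1403 and 1006 in cytosol, ER and mitochondria. Without the members that share over 10% of their windows, an alternative chosen after seeing the data, the medians were 30.99, 40.66 and 33.8 and the sums 7319, 2437 and 540.2. The order of the 3 sums was the same in the 3 alternatives run for sums (longest transcript, without the most abundant member, without members that share windows), while that of the medians was not the same in every alternative run for them. Scaling without the 10 most abundant genes multiplied every level by 1.108. The share of members with a heat shock element was 27.6% with 2 units, and that with an ER stress element 6.9% with 1 mismatch.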
